A study of Arabidopsis thaliana with 64 samples.

Results

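L4-1 and L4-2 are F4 hybrid mimic lines of Arabidopsis thaliana, descendants of a cross between the accessions Landsberg erecta (Ler) and C24 that were kept for their hybrid-like growth. They were set here against both parental accessions at 15 days after sowing, using the 8 libraries of the second growth batch, out of 64 samples in the series. These were 2 libraries of L4-1, 2 of L4-2, 2 of C24 and 2 of Ler, all untreated. Each library came from the aerial tissue of a pool of 5 seedlings grown on sucrose medium with 16 h of light at 22 °C and 8 h of dark at 18 °C, under light tubes that differed from those of the first batch. The L3 lines (4 libraries) and the Ler x C24 F1 (2 libraries) of the same batch served as further comparisons. Each line is a single selected lineage, pools hide differences between plants, and an F4 plant can still be heterozygous at some loci.

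Hybrid vigour, or heterosis, is the greater growth of an F1 than of its parents, and it is normally lost as the alleles of the cross separate in later generations. Hybrid mimics are lines selected by repeated selfing to keep an F1-like stature. At a gene where the parents differ, such a line can hold the allele of one parent, of the other or of both, so its transcript level can sit at one parent's level, between them or outside both. Natural accessions are known to differ in the flowering time genes FRIGIDA (FRI) and FLC and in which side chain gene of glucosinolate synthesis they express at the AOP locus.

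The libraries held 60791837 to 85449158 counted reads in the L4 lines and 36324848 to 88686247 in the parents. The 4 groups had 2 pools each, so p-values measure the spread between pools. Levels are given as CPM (counts scaled to a common library size), which are not scaled by gene length. In bulk tissue, fewer cells of a type cannot be told apart from less RNA per cell. Markers of green tissue were abundant in every library, with a summed level of 75110 to 96070 CPM over 37 photosynthesis genes in L4 pools and 80130 to 90320 CPM in parental pools. The 9 root markers summed to 145 and 129 CPM in L4-1 and to 60.8 and 59.2 CPM in L4-2, against 94.9 and 110 CPM in C24 and 64.3 and 56.7 CPM in Ler, with none of them at 0. L4-1 therefore stood above and L4-2 within the range of the parents on this list, in tissue labelled as aerial.

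Across 30207 genes tested, the L4 lines differed from the mean of both parents at 1953 genes, which is 6.47% of those tested, by edgeR's quasi-likelihood test with a Benjamini-Hochberg adjusted p under 0.05. Of these, 1096 were higher (3.63%) and 857 lower (2.84%), so 56.1% of the calls were rises. The parental mean here is the mean of log2 levels. Against a mid-parent library made from the mean of the parents' counts, the lines differed at 609 genes, of which 30.4% were rises. Of the 1953 genes, 533 kept their call and direction under that definition. For genes whose parents differ strongly, the log-scale mean lies far below the mean of the counts. Only 293 of the 1953 genes had a called parental log2 difference above 2, so most of the lost calls were at other genes. The mid-parent libraries were also fewer than the 4 parental libraries they replaced. What each change did to the number of calls was not tested. The values against each parent below do not use either mean. The count also rests on single libraries and was lowest, at 798, without the second Ler pool. Without regard to a test, 1126 genes (3.73%) had all 4 L4 pools above all 4 parental pools and 881 genes (2.92%) had all 4 below.

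Against single parents, more genes were called against C24 than against Ler. The lines differed from C24 at 3755 genes (12.4%), with 1802 higher (5.97%) and 1953 lower (6.47%), and from Ler at 2227 genes (7.37%), with 1135 higher (3.76%) and 1092 lower (3.62%). Without the second C24 pool the count against C24 was 1274, and without the second Ler pool that against Ler was 925. The lines were not alike in these counts. L4-1 differed from C24 at 3926 genes (13%) and from Ler at 1330 (4.4%), whereas L4-2 differed from C24 at 3100 genes (10.3%) and from Ler at 4072 (13.5%). Ler itself differed from C24 at 5669 genes (18.8%).

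The genes that differed between the parents were used to place the lines by their calls against each parent. A gene was placed at the C24 level when the lines were called against Ler and not against C24, and at the Ler level in the opposite case. A missed call does not show an equal level, so these classes are approximate. Of the 5669 genes, the L4 lines were at the C24 level for 1297 (22.9%) and at the Ler level for 2079 (36.7%). A further 295 (5.2%) were called against both and lay between them, 1970 (34.8%) were called against neither, and 28 were outside both. L4-1 by itself was at the Ler level for 2415 genes (42.6%) and at the C24 level for 859 (15.2%). L4-2 was at the Ler level for 1403 genes (24.7%) and at the C24 level for 1945 (34.3%).

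Position along the chromosomes was described with 234 genes whose parental levels differed by more than 4 on the log2 scale, taking C24 as 0 and Ler as 1. No minimum level was required of these genes, so the class of some rests on few reads. L4-1 was at the C24 level (under 0.25) for 107 of them, between for 51 and at the Ler level (above 0.75) for 76. L4-2 was at the C24 level for 97, between for 49 and at the Ler level for 88. The lines shared a class at 150 genes. The lines were at opposite parents in both senses, with 21 genes at the C24 level in L4-1 and the Ler level in L4-2, and 5 the other way round. Chromosome 1 held 17 of the 21 and 3 of the 5. With these limits no gene of chromosome 3 or 5 had the lines at opposite parents. With limits of 0.35 and 0.65, chromosome 3 held 3 such genes and chromosome 5 held 1, all at the Ler level in L4-1. The 21 then became 23, of which chromosome 1 held 18, and the 5 became 13, of which it held 4. With a parental difference above 2, chromosome 3 held 1 and chromosome 5 held 6, again all at the Ler level in L4-1. The 21 then became 43, of which chromosome 1 held 32, and the 5 became 24, of which it held 12.

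**Figure D1:**
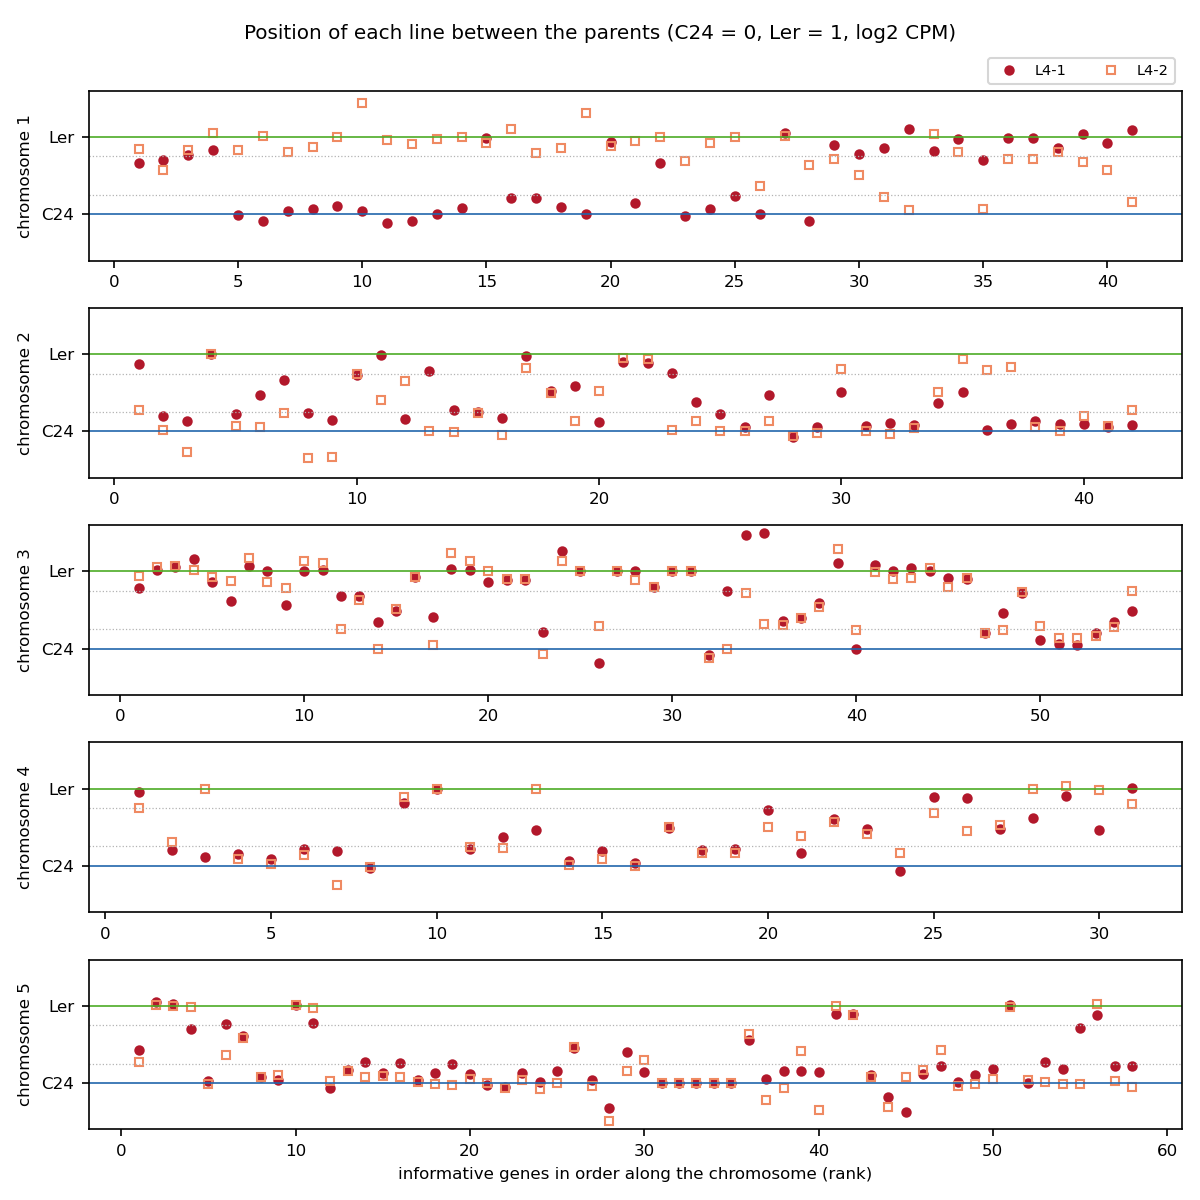
Position of L4-1 (filled circles) and L4-2 (open squares) between the parents for 227 strongly parent-specific genes with a chromosome, in gene order (rank, x axis); the y axis is the position on the log2 CPM scale, with C24 at 0 and Ler at 1 (solid lines), the class limits 0.25 and 0.75 dotted, and 2 values clipped to the range of -0.5 to 1.5. Among the first 21 genes of chromosome 1 most circles (15 of 21) lie at the C24 line and most squares (20 of 21) at the Ler line, and on chromosome 5 both sit mostly on the C24 line.

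On chromosome 1 the split was drawn out over a long run of these strongly parent-specific genes, between which other genes lie. L4-2 was at the Ler level for 20 of them in a row, which start between base 8461757 (AT1G23935) and base 15179141 (AT1G40115), in coordinates of RefSeq TAIR10.1 as throughout. L4-1 was at the C24 level for 15 of these 20, including 10 in a row from AT1G27540 to AT1G35130. The first gene of that run of 10, AT1G27540, had 4.23 and 4.42 CPM in L4-1 and 47.0 and 57.5 CPM in L4-2, against 4.40 and 4.46 CPM in C24 and 82.6 and 84.3 CPM in Ler. L4-1 thus matched C24 in both pools, and L4-2 approached Ler without reaching it. The last gene of that run, AT1G35130, was near the floor. It had 0.185 and 0.201 CPM in L4-1 and 0 in both L4-2 pools, against 0.269 and 0.216 CPM in C24 and 0 in both Ler pools. AT1G27540 and AT1G35130 are named because they bound the run, after their values were seen.

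The other chromosomes were more alike between the lines. Of the 55 genes on chromosome 3, 31 were at the Ler level in L4-1 and 32 in L4-2. Of the 58 genes on chromosome 5, 39 were at the C24 level in L4-1 and 41 in L4-2. In L4-2 these included 14 of the strongly parent-specific genes in a row, starting between base 9903437 and base 10372872. Of these 14, 12 were at the C24 level in L4-1 too. Chromosome 5 also held a Ler-level island, the neighbouring immune receptor genes CSA1 and DAR4, singled out after their values were seen. CSA1 had 2.92, 3.16, 3.58 and 3.38 CPM in the L4 pools, against 97.5 and 91.1 CPM in C24 and 3.81 and 3.3 CPM in Ler. DAR4 had 3.02, 2.96, 3.89 and 2.84 CPM in the L4 pools, against 80.1 and 72.1 CPM in C24 and 3.6 and 2.96 CPM in Ler. All 4 L4 pools held both genes of this pair at the low Ler level.

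Most of the largest differences from one parent were of genes at which both lines held the other parent's level. Rises against Ler included 3 pseudogenes of a short stretch of chromosome 4 with 0 counts in both Ler pools, for which only a lower bound of the fold can be given. AT4G07874 had 5.66, 6.93, 8.50 and 7.75 CPM in the L4 pools, against 7.31 and 8.32 CPM in C24 and 0 in both Ler pools, so it was at least 291-fold higher than a floor of 3 counts over both Ler pools. On the same floor AT4G08093 was at least 152-fold and AT4G07843 at least 80.6-fold higher in the L4 lines. AT4G08093 did not reach the C24 level, with 2.45, 3.81, 4.40 and 4.40 CPM in the L4 pools against 11.0 and 12.2 CPM in C24. AT2G25510, a protein-coding gene on chromosome 2, had 193 and 206 CPM in L4-1 and 316 and 358 CPM in L4-2, against 575 and 448 CPM in C24 and 0.524 and 0.256 CPM in Ler. Among the largest falls against Ler was AT2G14460, with 0 to 0.0308 CPM in the L4 pools and 0 in both C24 pools, against 10.5 and 11.2 CPM in Ler. Smaller falls against Ler included the neighbouring genes AT5G37130 and AT5G37140. AT5G37130 had 35.7, 35.4, 34.4 and 34.5 CPM in the L4 pools, against 42.9 and 40.9 CPM in C24 and 359 and 353 CPM in Ler, a log2 fold change of -3.35 ± 0.14 (SE) against Ler by edgeR (Benjamini-Hochberg adjusted p = 2.39e-13). The 4 L4 pools of AT5G37130 were nearly equal and lay close to C24. AT5G37140 was called below C24 as well as below Ler. Its log2 fold change against C24 was -0.661 to -0.459 over 17 settings of the model, 7 of which lost that call.

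Against C24 the picture was the converse. AT3G18535, annotated as a tubulin-tyrosine ligase, had 134 and 117 CPM in L4-1 and 171 and 139 CPM in L4-2, against 0.923 and 0.582 CPM in C24 and 128 and 102 CPM in Ler. AT3G44070, a glycosyl hydrolase, had 43.6, 41.8, 66.9 and 44.7 CPM in the L4 pools, against 0.115 and 0.0647 CPM in C24 and 43.0 and 38.6 CPM in Ler. Both genes overlap another annotated gene, and the use of strand in counting is not stated. AT3G43740, a leucine-rich repeat protein gene, fell by 9.41 ± 0.31 (SE) on the log2 scale against C24, averaging 0.0186 CPM in the L4 pools, against 11.3 CPM in C24 and 0.0259 CPM in Ler. At each of these genes the L3 lines were near the level of C24, and L4 differed from L3 by 7.51 ± 0.27, 7.90 ± 0.31 and -9.05 ± 0.29 on the log2 scale (SE, edgeR adjusted p = 2.74e-14, 8.3e-14 and 4.67e-15). At these 3 genes the L4 and L3 lines held opposite parental levels.

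A total of 172 genes (0.569% of those tested) had a level outside both parents, called against C24 and against Ler in the same direction. Of these, 88 were above (0.291%) and 84 below (0.278%). The 4 L4 pools did not overlap the 4 parental pools at 78 of the 88 and at 77 of the 84. Of all genes tested, 3.73% had no overlap with L4 higher and 2.92% with L4 lower. The 172 genes were called on these same pools, so the lack of overlap is no separate evidence. Most of the excursions were small: the smaller of a gene's 2 absolute log2 fold changes had a median of 0.542 above and 0.544 below. Among the 88, pseudogenes made up 14 (15.9%), against 7.02% of all genes tested, and protein-coding genes 81.8%, against 86.5%. Of the genes below, 90.5% were protein-coding. Of the genes above, 17% were also called between the parents, as were 15.5% of those below and 18.8% of all genes tested.

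**Figure D2:**
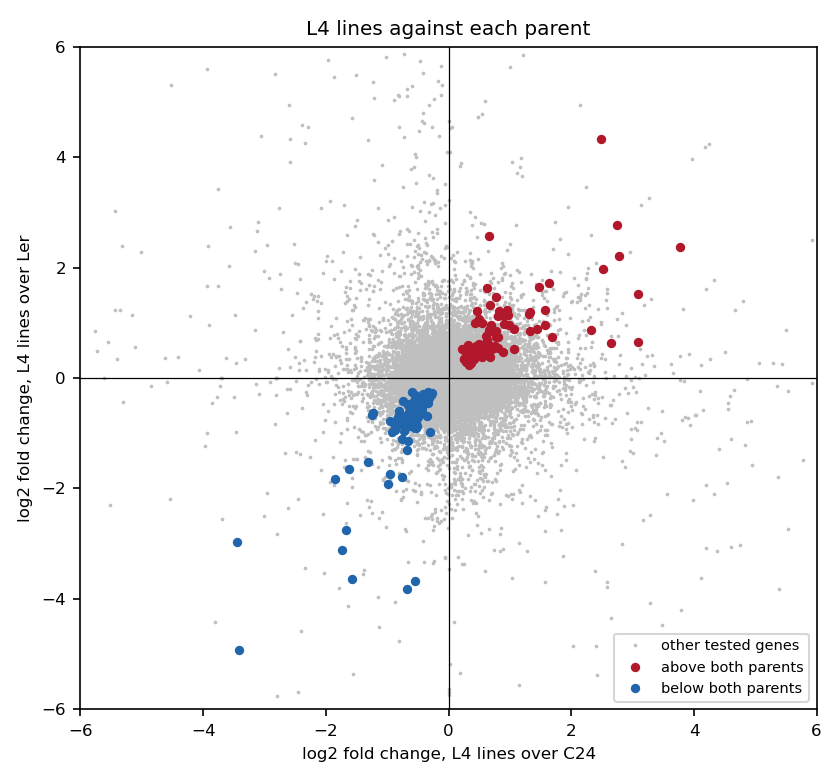
Each point is a gene tested, placed by its log2 fold change in the L4 lines over C24 (x axis) and over Ler (y axis); genes called above both parents are red and below both blue, and 89 points lie beyond the axis limits of 6, of which 1 is a called gene (AT3G31356). The 88 red and 84 blue genes crowd around the centre, where the smaller of the 2 absolute log2 fold changes has a median of 0.542 above and 0.544 below, with a tail that reaches beyond 2.

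The class depends on single libraries. With each of the 8 libraries left out in turn, 9 of the 88 genes above and 4 of the 84 below kept the call every time, and the 9 included FLM, AT5G37665, AT5G35777, AT2G16140, AT3G09380 and AT5G19097. The 4 genes below were AT1G50290, AT2G10931, AT3G58430 and AT5G19750. Without the second Ler pool, the smallest library, the number outside both was 52, and it was 55 without the second C24 pool. Tested line by line, L4-1 was outside both parents at 118 genes (0.391%) and L4-2 at 613 (2.03%), and 18 genes were outside both parents in the same direction in both lines, 10 above and 8 below.

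FLM (also MAF1), a MADS-box floral repressor related to FLC, was highest of the named genes above both parents that code for a protein of known function. It lies on chromosome 1 at 28955483 to 28960234. FLM had 30.2 and 32.0 CPM in L4-1 and 21.3 and 15.5 CPM in L4-2, against 1.6 and 1.90 CPM in C24 and 4.85 and 4.39 CPM in Ler. All 4 L4 pools were above all 4 parental pools. The log2 fold change was 3.78 ± 0.36 (SE) against C24 and 2.37 ± 0.32 against Ler by edgeR (adjusted p = 1.91e-07 and 3.31e-05). The F1 had 21.4 and 20.8 CPM, and L4 did not pass the test against it (log2 fold change 0.18 ± 0.28, edgeR adjusted p = 0.872). The L3 lines were split, with 2.90 and 1.62 CPM in L3-1 and 19.9 and 29.8 CPM in L3-2.

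Pseudogenes made up several of the highest rises. AT5G37665 on chromosome 5 had 9.20 and 10.5 CPM in L4-1 and 5.80 and 5.56 CPM in L4-2, against 1.06 and 1.16 CPM in C24 and 0.967 and 1.25 CPM in Ler. Unlike FLM, it was also above the F1, by 2.48 ± 0.26 on the log2 scale, and above the L3 lines, by 2.89 ± 0.20 (SE, edgeR adjusted p = 1.87e-06 and 9.23e-10), all of which had between 0.849 and 1.45 CPM. AT5G35777 had 9.66 and 10.8 CPM in L4-1 and 19.0 and 21.2 CPM in L4-2, against 3.35 and 1.75 CPM in C24 and 0.769 and 0.627 CPM in Ler. Its 2 lines lay on either side of a gap, but every L4 pool was above every parental pool. AT5G35777 stood at 8.12 to 11.9 CPM in the L3 lines, from which L4 did not differ by the test (log2 fold change 0.48 ± 0.22, edgeR adjusted p = 0.312).

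Protein-coding genes above both parents included ACS11 and PHYA. ACS11 encodes a 1-aminocyclopropane-1-carboxylate synthase, the enzyme class that makes the ethylene precursor. It had 1.94, 2.42, 2.78 and 2.73 CPM in the L4 pools, against 0.481 and 0.367 CPM in C24 and 0.699 and 0.513 CPM in Ler, but lost its call against Ler when the second Ler pool was left out. AT3G09380, annotated in the MIP18 family, had 3.57, 4.31, 6.79 and 5.62 CPM in the L4 pools, against 0.654 and 0.496 CPM in C24 and 2.04 and 1.31 CPM in Ler, and it was above the F1 and the L3 lines too (log2 fold change 1.1 ± 0.27 and 1.11 ± 0.21, edgeR adjusted p = 0.0321 and 0.00153). UGT76C1, a glycosyltransferase that inactivates cytokinins, had a small and even rise, with 15.3 to 16.4 CPM in the L4 pools against 10.9 and 12.8 CPM in C24 and 11.6 and 13.2 CPM in Ler.

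PHYA encodes phytochrome A, the far-red light receptor. It had 284, 229, 254 and 245 CPM in the L4 pools, against 153 and 137 CPM in C24 and 181 and 168 CPM in Ler, with no overlap. Its log2 fold change was 0.67 ± 0.12 (SE) against the parental mean, 0.80 ± 0.16 against C24 and 0.54 ± 0.16 against Ler by edgeR (adjusted p = 0.00203, 0.00166 and 0.0375). The call against Ler was lost when any of 5 single libraries was left out, and that against C24 without the second C24 pool, while the call against the mean held in each case. The F1 had 213 and 198 CPM and the L3 lines 188 to 244 CPM, and neither comparison with L4 passed the test.

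**Figure D3:**
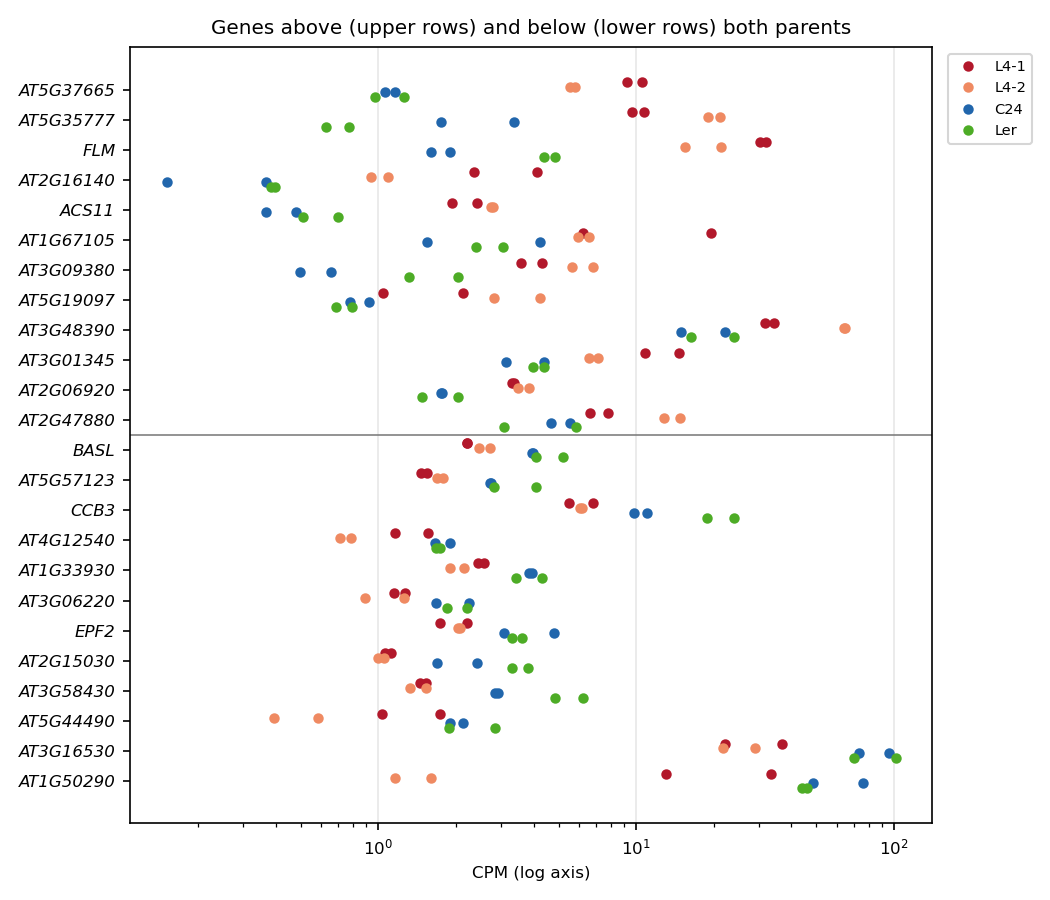
Level in every library (CPM, log axis) of the 12 genes above both parents (upper rows) and the 12 below (lower rows) that lead by the smaller of their 2 fold changes, with L4-1 in dark red, L4-2 in orange, C24 in blue and Ler in green. The genes were chosen to have no overlap, so the L4 points lie right of all parental points in the upper rows and left in the lower rows. In AT1G50290 the L4-1 pools (13.1 and 33.5 CPM) lie near the parents while the L4-2 pools (1.16 and 1.6 CPM) lie far below.

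Below both parents, AT1G50290, an uncharacterized gene on chromosome 1, fell most among the named genes, by 3.45 ± 0.37 on the log2 scale against C24 and by 2.98 ± 0.37 against Ler (SE, edgeR adjusted p = 1.05e-06 and 7.63e-06). It had 13.1 and 33.5 CPM in L4-1 and 1.16 and 1.6 CPM in L4-2, against 48.4 and 75.8 CPM in C24 and 46.0 and 43.9 CPM in Ler, so most of the fall was in L4-2. AT3G58430, a MATH domain gene, was even across the lines, with 1.45, 1.53, 1.53 and 1.33 CPM in the L4 pools, against 2.90 and 2.85 CPM in C24 and 4.84 and 6.21 CPM in Ler. CCB3, a factor for attaching haem to the cytochrome b6f complex of the chloroplast, had 5.48, 6.80, 6.17 and 6.08 CPM in the L4 pools, against 9.77 and 11.0 CPM in C24 and 18.9 and 23.9 CPM in Ler. LTP6, a lipid transfer protein gene, had 22.6, 24.6, 24.1 and 20.9 CPM, against 38.3 and 35.3 CPM in C24 and 63.3 and 50.4 CPM in Ler. In these 3 genes no L4 pool reached any parental pool. The call of CCB3 against C24 was lost without either C24 pool, without L4-1 replicate A or without L4-2 replicate B.

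EPF2 and BASL, both below both parents, act in the stomatal lineage, the series of divisions in the young epidermis that ends in guard cells. EPF2 is a secreted peptide that limits how many cells enter the lineage, and BASL is a protein that marks one side of the dividing cell. EPF2 had 1.74, 2.22, 2.04 and 2.07 CPM in the L4 pools, against 4.79 and 3.06 CPM in C24 and 3.62 and 3.3 CPM in Ler. BASL had 2.22, 2.22, 2.71 and 2.45 CPM in the L4 pools, against 3.98 and 3.95 CPM in C24 and 4.1 and 5.21 CPM in Ler. In both genes the L4 pools lay below all parental pools. The log2 fold change against the parental mean was -0.87 ± 0.18 (SE) for EPF2 and -0.84 ± 0.14 for BASL by edgeR (adjusted p = 0.00434 and 0.000526). Neither differed from the F1 or the L3 lines by the test (adjusted p between 0.158 and 0.867). The EPF2 call against Ler was lost when any of 5 single libraries was left out and that against C24 without the first C24 pool, and BASL lost its call against C24 without the second. With only the libraries of batch 2, EPF2 did not pass against Ler (-0.80, edgeR adjusted p = 0.0575).

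The promoters of both genes are shown because the lineage is started by SPCH, a basic helix-loop-helix factor, and factors of this class bind the E-box (CANNTG, searched on both strands, which read alike). The windows run from 250 bases before to 50 after the annotated start on TAIR10.1, 5′ to 3′ on the strand of the gene, with E-boxes in capitals. EPF2 lies on the plus strand (chr1:12472618-12472917) with 3 E-boxes, and BASL on the minus strand (chr5:24489787-24490086) with 1.
EPF2: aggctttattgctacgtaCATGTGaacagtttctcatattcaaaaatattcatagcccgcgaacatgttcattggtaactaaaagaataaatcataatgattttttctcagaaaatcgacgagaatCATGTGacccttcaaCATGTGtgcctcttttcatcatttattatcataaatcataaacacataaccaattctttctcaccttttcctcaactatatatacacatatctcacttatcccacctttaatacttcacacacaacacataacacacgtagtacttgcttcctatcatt
BASL: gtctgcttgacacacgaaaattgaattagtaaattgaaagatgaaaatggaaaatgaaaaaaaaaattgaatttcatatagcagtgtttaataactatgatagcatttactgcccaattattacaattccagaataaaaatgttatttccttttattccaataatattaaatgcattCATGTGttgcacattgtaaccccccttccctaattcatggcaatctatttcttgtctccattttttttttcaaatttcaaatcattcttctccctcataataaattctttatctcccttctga
All 4 matches read CATGTG. An E-box is common in such windows: 62.1% of the promoters of all genes tested held one, as did 59.1% of those of the genes above both parents and 62.2% of those below. The narrower G-box CACGTG, which is itself an E-box, was in 7.33% of all promoters, 7.95% of those above and 3.66% of those below. The W-box TTGACC was in 13.8%, 9.09% and 12.2%, and the evening element AAAATATCT in 2.75%, 1.14% and 1.22%, in the same order.

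A list of 15 stomatal lineage genes, drawn up after EPF2 and BASL had been seen, was then read. Against the parental mean 5 fell and 0 rose, where 2.84% of all genes tested fell, with a median log2 fold change of -0.31, beside 0.0111 for all genes tested. Apart from EPF2 and BASL, which prompted the list, 3 of 13 fell. SPCH itself was among the 5, with 5.82 and 5.52 CPM in L4-1 and 3.68 and 3.88 CPM in L4-2, against 6.17 and 5.35 CPM in C24 and 9.22 and 7.86 CPM in Ler. Its log2 fold change was -0.60 (edgeR adjusted p = 0.017), and its L4-1 pools overlapped those of C24. The polarity gene POLAR (-0.44, adjusted p = 0.0484) and the receptor kinase gene ERL2 (-0.45, adjusted p = 0.00985) also fell by edgeR. Against the mean of the parents' counts, 2 of the 15 fell. The later factors MUTE (-0.41, adjusted p = 0.0727) and FAMA (-0.17, adjusted p = 0.262) did not pass. Most of the difference lay against Ler, where 8 of 15 fell (3.62% of all genes tested) with a median of -0.534, while against C24 2 fell and SCRM2 rose, with a median of -0.151. ER, the receptor kinase gene that is mutated in Ler, had 93.1 to 115 CPM in the L4 pools, against 103 and 109 CPM in C24 and 142 and 120 CPM in Ler, and did not pass against the mean (edgeR adjusted p = 0.239).

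**Figure D4:**
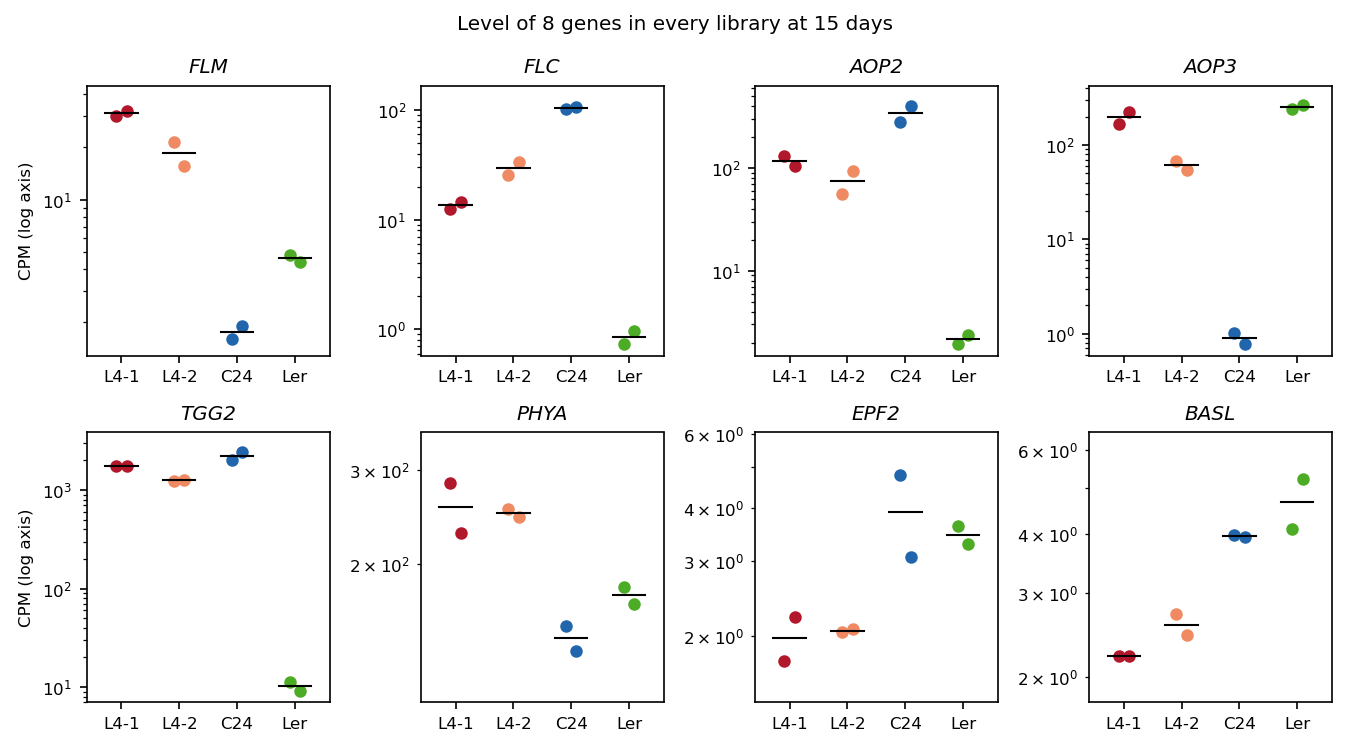
Level in every library (CPM, log axis, a scale of its own in each panel) of 8 genes in L4-1, L4-2, C24 and Ler, with 2 pools a group and the group mean as a bar. FLM and PHYA lie above both parents, EPF2 and BASL below both, and FLC, AOP2, AOP3 and TGG2 lie at or between the levels of 2 widely separated parents.

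Of 28 flowering genes, FLM, FLC and FRI rose against the parental mean and 0 fell, with a list median of -0.02. Of all genes tested, 3.63% rose and 2.84% fell against that mean. FLC, the floral repressor that FRI activates, had 12.6 and 14.4 CPM in L4-1 and 25.4 and 33.4 CPM in L4-2, against 101 and 107 CPM in C24 and 0.734 and 0.968 CPM in Ler. Every L4 pool lay between the parents, below C24 by 2.39 ± 0.15 and above Ler by 4.59 ± 0.22 on the log2 scale (SE, edgeR adjusted p = 3.81e-10 and 2.72e-12). Against the mean its direction depends on the scale, with a log2 fold change of 1.1 on the log-scale mean and -1.39 against the mean of the counts, both past the test. FLC was also below the F1 (69.0 and 82.9 CPM) by 1.93 ± 0.15 on the log2 scale (edgeR adjusted p = 2.44e-08). The locus overlaps another annotated gene, and reads from the 2 strands may not be told apart.

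FRI was at the C24 level in both lines. It had 13.1, 13.2, 12.5 and 13.4 CPM in the L4 pools, against 12.7 and 12.1 CPM in C24 and 4.93 and 6.44 CPM in Ler, with a log2 fold change of 1.21 ± 0.13 against Ler and 0.07 ± 0.12 against C24 (SE, edgeR adjusted p = 1.68e-06 and 0.766). SOC1 promotes flowering and is a target of FLC. It had 32.8 and 45.4 CPM in L4-1 and 74.8 and 43.2 CPM in L4-2, against 15.4 and 16.0 CPM in C24 and 79.9 and 70.5 CPM in Ler. SOC1 was above C24 by 1.61 ± 0.43 on the log2 scale (edgeR adjusted p = 0.0171) and did not pass against Ler. The call against C24 was lost without either C24 pool (edgeR adjusted p = 0.13 and 0.144). FT, the mobile flowering signal, did not pass against either parent. The 8 flower organ markers were lower than in Ler at 6 of 8, beside 3.62% of all genes tested, with a median of -0.957, and AP1, which specifies the floral meristem, had 0.655 to 1.02 CPM in the L4 pools, against 0.712 and 0.755 CPM in C24 and 3.83 and 2.76 CPM in Ler. Their summed level was 13.2 to 25.5 CPM in the L4 pools, against 14.3 and 14.5 CPM in C24 and 30.3 and 31.8 CPM in Ler. Against Ler the 28 flowering genes had 4 rises and 0 falls, beside 3.76% and 3.62% of all genes tested. The part of floral buds in the pools was not tested.

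Glucosinolates are the sulfur-rich defence compounds of this family, released as toxins when myrosinase meets them in crushed tissue. Of 34 genes of their synthesis and breakdown, 5 rose and 5 fell against the parental mean (3.63% and 2.84% of all genes tested), with a median of -0.22, while 1 rose and 2 fell against the mean of the parents' counts. The side chain genes AOP2 and AOP3 are tandem neighbours on chromosome 4, and each parent expressed mainly one of them. AOP2, which makes alkenyl side chains, had 130 and 106 CPM in L4-1 and 55.7 and 92.9 CPM in L4-2, against 282 and 402 CPM in C24 and 1.93 and 2.36 CPM in Ler. AOP3, which makes hydroxyalkyl side chains, had 167 and 226 CPM in L4-1 and 67.2 and 54.4 CPM in L4-2, against 1.02 and 0.776 CPM in C24 and 240 and 263 CPM in Ler. All 4 L4 pools thus held both transcripts at 54.4 CPM or more. The F1 held both as well, with 80.2 and 91.4 CPM of AOP2 and 60.1 and 90.5 CPM of AOP3, and L4 did not pass the test against it for either gene. In the L3 lines AOP3 stood near 1 CPM, and L4 was above them by 6.76 ± 0.43 on the log2 scale (SE, edgeR adjusted p = 2.85e-10). These genes are close copies of each other, and whether reads were split between them was not tested.

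TGG2, one of the 2 leaf myrosinases, had 1771 and 1735 CPM in L4-1 and 1246 and 1269 CPM in L4-2, against 2007 and 2421 CPM in C24 and 11.3 and 9.23 CPM in Ler. The lines were above Ler by 7.17 ± 0.42 on the log2 scale (SE, edgeR adjusted p = 7.87e-11). No L4 pool reached a C24 pool. The lines did not pass against C24 in the model of all 15-day libraries, but were lower with only the 8 libraries compared (-0.59, edgeR adjusted p = 0.0129) or only those of batch 2 (-0.59, adjusted p = 0.00854). Against the mean of the parents' counts, AOP2 (-0.86, adjusted p = 0.167) and AOP3 (-0.20, adjusted p = 0.891) turned direction and TGG2 (0.43, adjusted p = 0.557) no longer passed by edgeR. MYB29, an activator of the aliphatic branch, had 6.49, 7.69, 4.95 and 5.6 CPM in the L4 pools, against 27.3 and 33.7 CPM in C24 and 7.82 and 7.35 CPM in Ler. Its neighbour MYB76, of the same branch, was likewise at the Ler level, with 1.29 to 2.76 CPM in the L4 pools against 5.92 and 6.27 CPM in C24 and 1.70 and 2.42 CPM in Ler. MAM1, which lengthens the side chain, had 693 and 677 CPM in L4-1 and 404 and 460 CPM in L4-2, against 430 and 428 CPM in C24 and 199 and 200 CPM in Ler, above the parental mean by 0.89 ± 0.15 on the log2 scale (edgeR adjusted p = 0.000493). CYP81F2, an enzyme of the indole branch, rose against the mean (1.65 ± 0.45, edgeR adjusted p = 0.029) but passed against neither parent. The transporter BAT5, the sulfotransferase SOT17 and the C-S lyase SUR1 fell against the mean by 0.69, 0.64 and 0.45 on the log2 scale, and their levels were lower in L4-2 than in L4-1.

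The sister lines differed at 2398 genes (7.94%), including 11 of the 34 glucosinolate genes, all higher in L4-1. The root marker sum, higher in both L4-1 pools than in both L4-2 pools, moved with that difference, and its part in it was not tested. By themselves, L4-1 differed from the parental mean at 1345 genes (4.45%) and L4-2 at 3157 (10.5%).

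**Figure D5:**
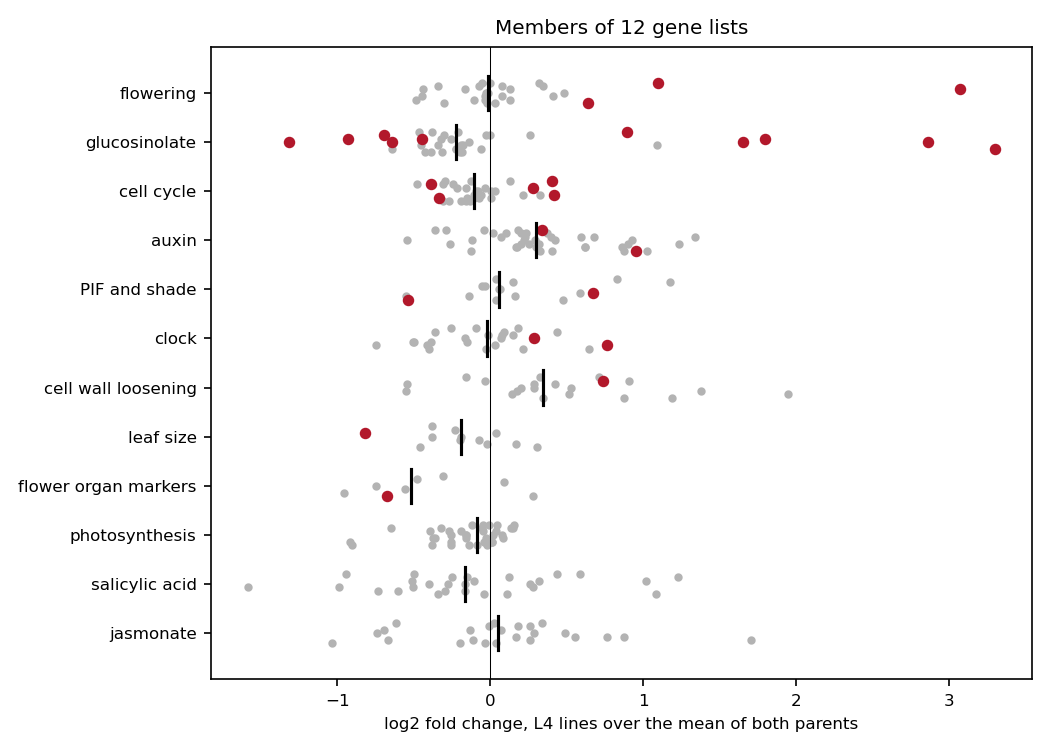
Log2 fold change of the L4 lines over the log-scale mean of both parents for the members of 12 gene lists (rows), with called genes in red, other genes in grey and the list median as a vertical bar. The glucosinolate list holds 10 called genes, 5 on either side, and the medians of auxin and cell wall loosening lie furthest right of 0. Among lists not shown, medians were 0.499 for cold and drought, 0.29 for ethylene, 0.263 for senescence and 0.108 for root markers. They were -0.0974 for heat shock, -0.215 for shoot meristem markers, -0.24 for flavonoid and -0.358 for sulfate genes.

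Growth, hormone and light lists held 1 to 5 calls each against the parental mean, beside 6.47% of all genes tested, and nothing is read from these counts alone. Of 40 auxin genes 2 rose and 0 fell, with a list median of 0.30, beside 0.0111 for all genes tested. GH3.5, which conjugates auxin and salicylic acid to amino acids, had 65.5, 70.9, 54.3 and 57.9 CPM in the L4 pools, against 28.0 and 27.8 CPM in C24 and 41.0 and 32.4 CPM in Ler, a log2 fold change of 0.95 ± 0.25 (SE, edgeR adjusted p = 0.026). The other auxin gene to rise was the repressor IAA16 (0.34 ± 0.09, adjusted p = 0.022, edgeR). The auxin synthesis gene YUC8 and the auxin and shade response gene IAA29 did not pass (edgeR adjusted p = 0.556 and 0.304). IAA29 passed as higher with only the 8 libraries compared (1.22, adjusted p = 0.00837) or only batch 2 (1.22, adjusted p = 0.0369) in the edgeR model. Of 21 cell wall loosening genes only XTH4, a xyloglucan endotransglucosylase, rose, and the list median was 0.34. XTH4 had 548, 472, 837 and 472 CPM in the L4 pools, against 355 and 419 CPM in C24 and 315 and 308 CPM in Ler. At an unadjusted p under 0.05, 11 auxin genes rose and 0 fell, and 7 cell wall genes rose and 2 fell, while 6422 of all 30207 genes passed that threshold in either direction.

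Of 16 genes of shade and phytochrome-interacting factors, PHYA rose and HY5, a promoter of light responses, fell (-0.53 ± 0.16, edgeR adjusted p = 0.0452), with 2.62, 2.82, 3.28 and 2.84 CPM in the L4 pools, against 4.02 and 5.56 CPM in C24 and 3.87 and 3.39 CPM in Ler. PIF4, a growth-promoting factor of warm and shaded plants, had 118 to 183 CPM in the L4 pools and 118 to 170 CPM in the parental pools, and did not pass (edgeR adjusted p = 0.986). Of 24 clock genes, RVE8, a morning activator, and LKP2, a blue light receptor of the clock, rose, and CCA1, LHY and TOC1 of the core loop did not pass. CCA1 passed as lower than the mean with only the 8 libraries compared (-0.41, adjusted p = 0.019) or only batch 2 (-0.41, adjusted p = 0.0318) in the edgeR model. RVE8 had 11.9, 9.13, 13.0 and 11.4 CPM in the L4 pools, against 6.04 and 4.1 CPM in C24 and 11.0 and 6.44 CPM in Ler, so it overlapped Ler.

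Of 31 cell cycle genes 3 rose and 2 fell, with a median of -0.11. The rises were PCNA2, a DNA polymerase clamp, and the kinases CDKB1;2 and CDKA;1, and the falls were the replication licensing genes MCM2 and CDT1A. PCNA2 had 19.4, 18.9, 16.1 and 12.4 CPM in the L4 pools, against 16.6 and 15.1 CPM in C24 and 10.2 and 9.48 CPM in Ler, near C24 and above Ler. MCM2 had 27.8 and 20.6 CPM in L4-1 and 11.4 and 15.7 CPM in L4-2, against 22.6 and 21.5 CPM in C24 and 25.1 and 25.5 CPM in Ler, so its fall was in L4-2. Of 12 leaf size genes, GIF1, a coactivator that prolongs cell proliferation in leaves, fell, with 6.46, 4.79, 7.57 and 6.14 CPM in the L4 pools, against 8.12 and 6.66 CPM in C24 and 18.5 and 13.8 CPM in Ler. GIF1 lay at the C24 level, and its call against the mean was lost without L4-1 replicate B, L4-2 replicate B or the first pool of either parent. Called members of these growth lists were close to the threshold, and GH3.5, IAA16, XTH4, HY5, RVE8, LKP2, MCM2, CDKA;1 and CDKB1;2 each lost the call against the mean without some single libraries, and PCNA2 lost it without L4-2 replicate A (edgeR adjusted p = 0.0559). Against the mean of the parents' counts 0 auxin, cell wall, clock or cell cycle genes passed by edgeR, while PHYA and GIF1 still did. PCNA2, CDKB1;2, LKP2 and WRKY53 overlap another annotated gene.

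Stress and metabolism lists held 0 or 1 call each against the mean, beside 6.47% of all genes tested. Of 13 senescence genes 1 rose, WRKY53, a regulator of leaf ageing, with 75.6 and 63.2 CPM in L4-1 and 14.3 and 36.3 CPM in L4-2, against 18.7 and 13.5 CPM in C24 and 18.4 and 13.2 CPM in Ler. The excess was mostly in L4-1. Single genes fell among 21 flavonoid genes (MYB111, a flavonol regulator) and 14 heat shock genes (HSP17.6II, a small chaperone). Leaving out any of 7 of the 8 libraries ended the call of WRKY53, any of 7 that of HSP17.6II and any of 5 that of MYB111. All 3 calls were also lost against the mean of the parents' counts, and those of WRKY53 and MYB111 with batch 2 alone (edgeR adjusted p = 0.122 and 0.0546). By edgeR 0 genes were called among 37 photosynthesis, 28 salicylic acid, 24 jasmonate, 16 cold and drought, 15 ethylene, 10 sulfate, 9 root and 9 shoot meristem genes. At an unadjusted p under 0.05, 0 photosynthesis genes rose and 1 fell, 4 salicylic acid genes rose and 0 fell, and 1 jasmonate gene rose and 2 fell. The same threshold was passed by rises of 1 cold and drought gene and 2 ethylene genes and by 0 sulfate, root or meristem genes. DESeq2 called a rise of 1 salicylic acid gene and of 1 cold and drought gene and 0 genes of the other 6 lists. PR1, a marker of salicylic acid defence, had 77.3, 183, 121 and 82.5 CPM in the L4 pools, against 479 and 258 CPM in C24 and 418 and 224 CPM in Ler. Although no pools overlapped, its log2 fold change of -1.58 ± 1.04 (SE) did not pass by edgeR (adjusted p = 0.408), and neither did ICS1, which makes salicylic acid. With only the 8 libraries compared in the edgeR model, PR1 passed as lower than the mean, C24 and Ler (adjusted p = 0.0246, 0.0209 and 0.0454), and ICS1 as lower than C24 (-0.59, adjusted p = 0.0431).

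Among the F4 lines and the F1 of the same growth batch, the L4 lines differed from the L3 lines at 1218 genes (4.03%), with 645 higher and 573 lower, and from the F1 at 549 (1.82%), with 173 higher and 376 lower. Genes named above fell on both sides: FLM, AOP2, AOP3 and PHYA did not pass against the F1, while FLC, MYB29 and AT5G37665 did. MYB29 was below the F1 (13.5 and 14.2 CPM) by 1.18 ± 0.16 on the log2 scale (SE, edgeR adjusted p = 9.21e-05). MAM1 was above the F1 (233 and 296 CPM) by 1.04 ± 0.19 (edgeR adjusted p = 0.00238).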

How the data were processed

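Total RNA of pooled aerial tissue was sequenced from TruSeq libraries, per the labels' protocols. The authors deposited raw read counts per gene; TAIR10 and FastQC are named in the submitters' processing notes, but for the aligner, the counter and strand nothing is given in the sources used here. All deposited counts at 15 days, from 36 libraries in 18 groups, were fitted in 1 model with edgeR 4.0.16 in R 4.3.3 (TMM scaling, filterByExpr, quasi-likelihood test, Benjamini-Hochberg threshold 0.05 over 30207 of 33321 genes). The biological coefficient of variation was 0.1772. Only batch 2 parents entered the contrasts. Standard errors are the absolute log2 fold change over the square root of F. CPM use TMM library sizes. Positions between parents use log2 CPM with a prior count of 2. Names, biotypes, coordinates and promoters came from RefSeq TAIR10.1 (32565 identifiers matched), so the coordinates are not those of the authors' alignment.

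Named genes were the 12 highest rises and 12 deepest falls outside both parents (mean of at least 1 CPM, no overlap), the 5 largest in each direction of each contrast, up to 4 called members of each of 20 lists (409 genes) and a set of fixed genes. Other genes (the stomatal list, UGT76C1, LTP6, further list members and genes that bound runs) were named after their values were seen. Members and lists were chosen with earlier results of these data known. Tested on simulated data of 29982 genes, the contrast with the parental mean recovered 75.8% of 2-fold and 96% of 4-fold changes, and the class outside both parents 53.5% and 89%. False calls were 9 of 180 against the mean, 11 of 162 against C24, 16 of 170 against Ler and 0 of 142 outside both. In the simulation the parents did not differ and both L4 lines changed alike, unlike in the data, so these shares may not hold there. Alternatives covered DESeq2 1.42.0, scaling, filters, the batch 2 libraries alone, mid-parent libraries made of mean counts, a replicate block and leaving out each library.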

Additional observations from a re-analysis of the deposited data

Results flagged for a closer look

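Of the genes chosen by the naming rule, 12 differed between the sister lines by edgeR's test of L4-1 against L4-2, so for these the value over both lines averages unlike levels. The largest difference was that of AT1G50290, at 4.07 on the log2 scale (L4-1 over L4-2). Higher in L4-1 were also AOP3 (1.70), AT2G16140 (1.67), AT5G44490 (1.51), MYB111 (1.04), AT3G01345 (0.90), AT4G12540 (0.85), MCM2 (0.84), CDKB1;2 (0.50) and PCNA2 (0.42). Lower in L4-1 were AT5G19097 (-1.17) and FLC (-1.13). Adjusted p-values ran from 3.91e-05 for AT1G50290 to 0.0386 for AT4G12540. Groups of 2 pools were too small for a search for outlying libraries. Reads of organelle genes made up 0.675% of the counts in Ler replicate D and 0.0825% in replicate C. They made up 0.295% in L4-2 replicate B and 0.0546% in replicate A. The L4-1 and C24 pools held 0.0569% to 0.0931%.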

How the results depend on the processing

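Counts of calls kept within 1.5 times of the reported ones with DESeq2, DESeq2 size factors, other filters, nuclear genes alone or only the batch 2 libraries. With only the 8 libraries compared in the model, 310 genes were outside both parents. Mid-parent libraries made of mean counts gave 609 genes for the L4 lines, 540 for L4-1 (25.9% rises, against 55.1% on the log-scale mean) and 1432 for L4-2 (52.7% rises, against 63.7%). Against these libraries 5 named genes changed direction: FLC (-1.386), AOP2 (-0.863), AOP3 (-0.199), AT4G08093 (-0.625) and AT2G12320 (-2.696), whose parents differ strongly.

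Replicate letters were not treated as pairs in the main model. Deviations from the group means correlated at 0.1511 between the L4 lines and 0.0693 between the parents. Whether pools of the same letter shared an effect was not tested. With a replicate block, calls were more numerous, at 2928 against the parental mean (1953 without it), 2023 for L4-1 and 3701 between the sister lines. With the block, 299 genes were outside both parents.

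Leaving out each library in turn gave 798 to 1858 calls against the parental mean, 1274 to 3676 against C24, 925 to 2171 against Ler, 2964 to 5655 between the parents, 425 to 1360 for L4-1, 706 to 2947 for L4-2, 286 to 2282 between the sister lines, 815 to 1185 against the L3 lines, 394 to 539 against the F1 and 52 to 157 outside both parents. The libraries that moved a count by more than 1.5 times were L4-1 replicate A (1143 against the parental mean, 112 outside both parents), L4-1 replicate B (1103 and 84, and 1463 against Ler), L4-2 replicate A (1227 and 104), C24 replicate C (1173 and 67, and 1832 against C24), C24 replicate D (1026 and 55, and 1274 against C24) and Ler replicate D (798 and 52, and 925 against Ler). Between the parents all 4 parental libraries did so (C24 replicate C 3647 and D 2964, Ler replicate C 3232 and D 3606). For L4-1 by itself they were L4-1 replicate A (425) and B (563), C24 replicate C (887) and D (853) and Ler replicate D (698), and for L4-2 by itself L4-2 replicate A (706) and B (1977) and Ler replicate D (1786). Between the sister lines they were L4-1 replicate A (357) and B (954) and L4-2 replicate A (286). The causes were not tested, beyond the smaller number of samples. Of the alternatives for named genes, 3602 kept direction and side of the threshold, 259 lost the call, 54 gained it and 5 reversed.

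With a log2 parental difference above 2 in place of 4, L4-1 was at the C24 level for 36.3% of genes, against 45.7%, and L4-2 at the Ler level for 30.7%, against 37.6%. With 2 pools a group, small changes of genes near 1 CPM may be missed, and a missed threshold does not show equal levels.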
